A study of Mus musculus with 24 samples.

Results

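The junctional zone, the trophoblast layer between the labyrinth and the decidua, was represented here by 10 genes of the prolactin family: Prl2a1, Prl3a1, Prl5a1, Prl7a1, Prl7a2, Prl7b1, Prl8a1, Prl8a6, Prl8a8 and Prl8a9. They were chosen by gene symbol, as family members of spongiotrophoblast and glycogen cells, and make up 10 of the 55401 genes in the table and 10 of 26 listed genes of the family. RNA of the maternal-fetal interface (MFI) of C57BL/6 mice was sequenced in 24 libraries, 3 from each of 8 groups: wild type (WT) and C1qtnf6 knockout (KO), each at gd10.5 and gd14.5 (gd, gestation day), around the time the placenta takes its final form, and at gd16.5 and gd19.5, late in pregnancy. The KO mice were homozygous for a CRISPR deletion of 3 exons of C1qtnf6, a C1q and TNF related protein gene, in a commercial strain, and the deletion was not limited to the placenta. No treatment was given to either genotype, the day of the vaginal plug was counted as day 0.5, and neither the age of the dams nor the litter of a sample is given in the labels, so the p-values below measure only the spread between these samples.

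In rodents the prolactin gene has been duplicated many times, and most of the copies are active only in the placenta or decidua. Most of those listed here lie in 1 cluster, while Prl2c3, Prl2c2 and Prl2c5 lie apart on the same chromosome, at chr13:12790816-13191923. The pituitary hormone and the placental lactogens act through the prolactin receptor and the JAK2 and STAT5 proteins, whereas most of the other placental members are not known to bind that receptor. Each member marks particular trophoblast cells at particular days, and the spongiotrophoblast layer is the main site of several of them in the second part of mouse pregnancy. Members of the 7A subfamily, Prl7a1 (PLP-E) and Prl7a2 (PLP-F), act on blood cell precursors, and Prl7a1 is known from trophoblast giant cells.

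All 10 genes lie on chromosome 13 within chr13:27259436-28151611 (GRCm38), a stretch of 892 kb. In chromosome order, 7 of them are direct neighbours with no other listed family gene between them: Prl8a6, Prl8a8, Prl8a9, Prl8a1, Prl7b1, Prl7a1 and Prl7a2, all on the minus strand within 235.4 kb at chr13:27432681-27668036. Prl7a1 (ENSMUSG00000006488, chr13:27633366-27642493) and Prl7a2 (ENSMUSG00000046899, chr13:27658584-27668036) are 16.1 kb apart, and Prl8a9 (ENSMUSG00000006490, chr13:27557995-27564606) and Prl8a1 (ENSMUSG00000019756, chr13:27573922-27582171) are 9.3 kb apart. Prl3a1 (chr13:27259436-27276667), Prl2a1 (chr13:27801654-27808729) and Prl5a1 (chr13:28142484-28151611) lie on the plus strand at a distance from these 7, with 2 or 3 other family genes in each gap. All 10 are protein coding, and no gene in the table overlaps any of them.

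Promoter sequence was matched by symbol to RefSeq (GRCm38.p6), which gave 300 bases, 250 before and 50 after the annotated start, for 9 of the 10 genes. The genes share a TATA-like run of letters that sits at nearly the same place in most of them, and the windows around it are shown because neighbouring genes with nearly the same letters here had opposite time courses. The 8 letters TATATAGG, in capitals below, were searched on both strands after they had been seen in these promoters, and each window has 30 bases, read 5′ to 3′ on the gene's strand.
Prl7a1: gattcaatggacTATATAGGaggtggatta
Prl7a2: cgttcaatggccTATATAGGaggtggaata
Prl8a1: tatgtgctagaaTATATAGGagcaggaaac
Prl8a6: tatctgctcgatTATATAGGaacaggaaag
Prl8a8: tatctaccagaaTATATAGGaacagtaaac
Prl8a9: tatctgctagaaTATATAGGagcaagaaac
Prl2a1: ggtatgaaacacTATATAGGaggaaaaatt
Prl5a1: tgtctggcaaacTATATAGGtggtgggaag
The run was found in 8 of the 9 promoters, in 5 of 13 promoters of other family genes, and in 184 of all 32851 promoters (0.560%). Counted from the annotated start, its first letter stood at -29 in Prl7a1, -31 in Prl7a2, -29 in Prl8a1, -27 in Prl8a8, -27 in Prl8a9, -30 in Prl5a1 and -40 in Prl2a1. In Prl8a6 it stood 12 bases after the annotated start. On the minus strand the Prl7a2 window also holds the same letters, read as the reverse complement, overlapping the first match. The window of Prl7a1 is at chr13:27642505-27642534, that of Prl7a2 at chr13:27668050-27668079 and that of Prl8a9 at chr13:27564616-27564645.

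A second run, CATTCC, the letters that TEAD factors are known to read, was found on either strand in 6 of the 9 promoters, in 2 of 13 of other family genes and in 14.7% of all promoters. Windows of 5 genes are shown because the letters before and after it are alike in all 4 Prl8a genes, whose levels differed widely.
Prl8a6: taagacagtgcaCATTCCctaaagatagaa
Prl8a8: taagtcaggtaaCATTCCcagaagaccgaa
Prl8a9: taaaatggttaaCATTCCctggagcaagaa
Prl8a1: taaaacagttaaCATTCCctgaagatagaa
Prl5a1: tggggcagttaaCATTCCctgaggggtcat
Its first letter stood at -132 in Prl8a8, -128 in Prl8a9, -131 in Prl8a1, -124 in Prl5a1 and -57 in Prl8a6. Of the other motifs searched on both strands, TATAAA was found in 2 of the 9 promoters against 13.6% of all promoters, the GATA letters AGATAA in 3 against 11.2%, the AP-1 letters TGANTCA in 4 against 7.81%, and the STAT letters TTCNNNGAA in 3 against 8.30%. A match is a string of letters and not a measured site.

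Over the 300 bases, the best local alignment of the promoters of Prl8a1 and Prl8a9 had 83.1% identical bases over 296 aligned, and that of Prl8a8 and Prl8a9 81.8% over 291.

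Levels are given as CPM, each count as a share of the scaled library total in parts per 1e6, after scaling with edgeR's trimmed mean of M values (TMM), and levels of different genes are compared only as CPM per kilobase of exon (CPM per kb). The libraries held 20975717 to 37383108 assigned reads, and 3 counts corresponded to 0.0773 to 0.149 CPM. The least counted member, Prl3a1, had 18 counts in its lowest library, so each of the 10 was above that floor in every library. C1qtnf6 itself had 64.7 to 168 CPM in WT and 0.0341 to 2.05 CPM in KO libraries, so no library went against its genotype label. One library, KO gd10.5 replicate 2, stood apart at its stage: the summed level of 6 spongiotrophoblast and glycogen cell markers was 11687 CPM there, against 821 and 1035 CPM in the other KO and 1384 to 2086 CPM in the WT libraries of that day, with no marker of the list at the floor. Steps and comparisons of the 10 genes that changed most without it are given with and without it. Other KO steps from gd10.5 are given with it only. The part of these markers in the results was not tested, and neither was whether the stage and dissection of this library are as labelled. In bulk RNA, fewer cells of a type and less RNA per cell cannot be told apart.

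The label was checked against Tpbpa, the defining gene of spongiotrophoblast and glycogen cells. Across the 24 libraries, which share their stages and tissue, log2 CPM of Tpbpa had a Pearson r of 0.98 with Prl8a9, 0.98 with Prl8a8 and 0.97 with Prl7a2. It was 0.89 with Prl8a1, 0.86 with Prl8a6, 0.85 with Prl2a1, 0.84 with Prl3a1 and 0.64 with Prl7b1. Prl5a1 followed Tpbpa weakly (r = 0.29), and Prl7a1 ran against it (r = -0.85). Over the stages, the data therefore went against the label for Prl7a1, which was kept in the set by its symbol. With the mean of each group taken away, its r with Tpbpa was -0.55 over the 24 libraries. Without the library that stood apart, that r was 0.13, beside 0.11 for Prl7a2, 0.04 for Prl8a8 and 0.71 for Prl8a6, the highest. Within groups the sign for Prl7a1 thus rested on that library. The same held for Prl5a1, with r of -0.63 over the 24 libraries and 0.53 without it. With that library included, r was 0.96 for Prl7a2 and 0.935 for Prl8a8, so these values rested on it too. The label was not decided within groups.

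The 10 genes were read from gd10.5 to gd19.5 in WT first. A gene was called where the adjusted p was under 0.05 and the log2 fold change over 1 in size (edgeR quasi-likelihood test, Benjamini-Hochberg adjustment over 19299 genes). From gd10.5 to gd14.5, 6 of 10 rose and 1 fell, against 10.55% of all genes tested that rose and 11.9% that fell. From gd14.5 to gd16.5, 3 rose and 1 fell, against 2.78% and 2.32%. Over the last step, 1 rose and none fell, against 0.917% and 0.57%, and with KO gd10.5 replicate 2 left out of the shared spread 3 were called (Prl5a1 and Prl8a6 higher, Prl7a2 lower), against 2.18% of all genes in that fit. In KO the same steps gave 6 higher and 2 lower, 3 higher and none lower, and none higher and 2 lower, against 9.09% and 11% of all genes, 5.36% and 3.25%, and 0.736% and 1.45%. Without the library that stood apart, 9 of 10 were called in KO in the first step and 4 in the last, against 25.7% and 3.05% of all genes. The median log2 fold change of the 10 genes from gd10.5 to gd14.5 was 3.40 in WT, where that of all genes tested was -0.02. In KO it was 2.53, beside 0.00 over all genes, and 3.76 for the 10 without that library.

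Prl7a1, the 7A member known from giant cells, was the one gene of the 10 with its highest level at gd10.5. WT libraries held 6219, 4848 and 4024 CPM at gd10.5, 319.5, 248 and 363 CPM at gd14.5, 185, 138 and 111 CPM at gd16.5 and 94.2, 165 and 108 CPM at gd19.5. KO libraries held 4097, 1871 and 3494 CPM, 437, 331 and 502 CPM, 220.2, 210.0 and 243 CPM and 87.1, 84.4 and 94.9 CPM on the same days. Every library of gd10.5 was above every later one in both genotypes, and the lowest library of that day was KO replicate 2. The log2 fold change from gd10.5 to gd14.5 was -4.02 ± 0.29 (SE, adjusted p = 1.87e-08) in WT and -2.90 ± 0.28 (SE, adjusted p = 2.27e-07) in KO, and -3.16 ± 0.24 (SE, adjusted p = 2.38e-09) in KO without replicate 2 of gd10.5. From gd14.5 to gd16.5 it was -1.10 ± 0.26 (SE, adjusted p = 0.00654) in WT, a call lost without WT gd14.5 replicate 3 or WT gd16.5 replicate 3, and -0.92 ± 0.26 (SE, adjusted p = 0.0162) in KO, short of the fold threshold. In the last step Prl7a1 fell in KO, -1.34 ± 0.27 (SE, adjusted p = 0.00758), a call lost without KO gd19.5 replicate 2, and the WT value was -0.24 ± 0.26 (SE, adjusted p = 0.651).

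Prl7a2, its neighbour and also a regulator of blood cell precursors, had the reverse course between the first days. WT libraries held 71.9, 86.9 and 55.9 CPM at gd10.5, 4797, 4399 and 4451 CPM at gd14.5, 2676, 3186 and 2522 CPM at gd16.5 and 1384, 1256 and 1442 CPM at gd19.5. KO libraries held 17.9, 1806 and 22.5 CPM, 5059, 4531 and 4340.1 CPM, 2784, 3013 and 4285 CPM and 1375, 974 and 1343 CPM. The WT stages did not overlap, and KO gd10.5 replicate 2 lay far above the other 2 KO libraries and all WT libraries of its day. Prl7a2 rose from gd10.5 to gd14.5 in both genotypes, 5.99 ± 1.13 (SE, adjusted p = 2.00e-04) in WT and 2.92 ± 0.98 (SE, adjusted p = 0.018) in KO. Without the library that stood apart the KO step was 7.85 ± 0.28 (SE, adjusted p = 3.55e-14). The later decline was not called in the 24 libraries, -1.04 ± 0.92 (SE, adjusted p = 0.567) from gd16.5 to gd19.5 in WT, and was called without that library, -1.04 ± 0.17 (SE, adjusted p = 0.0014) in WT and -1.45 ± 0.17 (SE, adjusted p = 7.73e-05) in KO.

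Per length, Prl7a2 stood at 0.0147 to 0.0228 times the level of Prl7a1 within WT libraries of gd10.5 and at 0.00553 and 0.00816 times in KO replicates 1 and 3. In KO gd10.5 replicate 2 the ratio was 1.22. From gd14.5 on it was 9.68 to 29.3 in the 18 libraries, so Prl7a1 was the higher of the pair in 5 of 6 libraries of gd10.5 and Prl7a2 in every later library.

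The next 4 genes belong to the 8A subfamily, formerly called prolactin-like protein C, and 3 of them were the most abundant members per length at gd16.5 and gd19.5. Prl8a9 held 272, 275 and 219 CPM in WT at gd10.5, 5369, 5322 and 5906 CPM at gd14.5, 7659, 8488 and 6077 CPM at gd16.5 and 6411, 7495 and 8318 CPM at gd19.5. The step from gd10.5 to gd14.5 was 4.44 ± 0.72 (SE, adjusted p = 4.23e-05) in WT and 2.77 ± 0.67 (SE, adjusted p = 0.00183) in KO, and no later step was called. Without KO gd10.5 replicate 2 the KO step was 5.32 ± 0.22 (SE, adjusted p = 3.29e-13). Prl8a9 was already above 200 CPM at gd10.5, in every WT library.

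Prl8a8 (ENSMUSG00000021346, chr13:27506968-27513217) held 10.6, 6.02 and 4.48 CPM in WT at gd10.5, 3644, 3422 and 3532 CPM at gd14.5, 4237, 4813 and 3729 CPM at gd16.5 and 2973, 3076 and 3712 CPM at gd19.5. Its rise from gd10.5 to gd14.5, 8.97 ± 1.12 (SE, adjusted p = 2.87e-06) in WT and 5.65 ± 0.96 (SE, adjusted p = 8.19e-05) in KO, was the largest of the 10 in both genotypes. Every library of gd14.5 and later lay above every library of gd10.5, of which KO replicate 2, at 206 CPM, came nearest. Without that library the KO rise was 9.41 ± 0.39 (SE, adjusted p = 2.97e-13), and a KO fall from gd16.5 to gd19.5 was called, -1.25 ± 0.22 (SE, adjusted p = 0.00185).

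Prl8a6 (ENSMUSG00000021345, chr13:27432681-27438688) rose in more than 1 step. WT libraries held 9.53, 10.6 and 9.48 CPM at gd10.5, 610.3, 835 and 692 CPM at gd14.5, 3702, 4770.2 and 2869.8 CPM at gd16.5 and 6519, 7935 and 10539.8 CPM at gd19.5. KO libraries held 18.8, 47.6 and 11.6 CPM, 530.5, 478 and 551 CPM, 8486, 7654 and 6007 CPM and 8421, 5759.7 and 8940.2 CPM. No WT stage overlapped the next, while KO libraries of gd16.5 and gd19.5 did. The log2 steps in WT were 6.17 ± 0.43 (SE, adjusted p = 1.11e-08), 2.41 ± 0.35 (SE, adjusted p = 9.84e-05) and 1.14 ± 0.34 (SE, adjusted p = 0.0602), of which the first and the second were called. In KO they were 4.32 ± 0.39 (SE, adjusted p = 1.14e-07), 3.83 ± 0.38 (SE, adjusted p = 1.22e-06) and 0.06 ± 0.34 (SE, adjusted p = 0.942), with the same calls. In WT the last step was called without KO gd10.5 replicate 2, 1.14 ± 0.22 (SE, adjusted p = 0.00351), and the first KO step was then 5.10 ± 0.31 (SE, adjusted p = 1.07e-10).

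Prl8a1, which shares most of its promoter letters with Prl8a9, stayed low: WT libraries held 31.3 to 39.6 CPM at gd10.5, 157 to 200.2 CPM at gd14.5, 146 to 186 CPM at gd16.5 and 90.5 to 119.8 CPM at gd19.5. It rose from gd10.5 to gd14.5 by 2.36 ± 0.19 (SE, adjusted p = 4.66e-08) in WT and 2.29 ± 0.19 (SE, adjusted p = 6.25e-08) in KO, and from gd16.5 to gd19.5 it fell in KO, -1.21 ± 0.18 (SE, adjusted p = 0.00148), where the WT value was -0.60 ± 0.18 (SE, adjusted p = 0.0621). Per length, its WT mean at gd14.5 was 92.28 ± 11.03 CPM per kb (SD, n = 3) and that of Prl8a9 was 5873 ± 344 CPM per kb (SD, n = 3).

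Prl3a1 (PLP-I) and Prl5a1 (PLP-L) were late genes with different starts. Prl3a1 held 1.14, 1.51 and 0.761 CPM in WT at gd10.5, 77.5, 104 and 79.1 CPM at gd14.5, 639, 759 and 404 CPM at gd16.5 and 868, 922 and 1198 CPM at gd19.5. It rose in the first and the second step in both genotypes, in WT by 6.21 ± 0.30 (SE, adjusted p = 8.26e-11) and 2.79 ± 0.24 (SE, adjusted p = 3.74e-07) and in KO by 5.22 ± 0.29 (SE, adjusted p = 7.42e-10) and 3.93 ± 0.25 (SE, adjusted p = 1.26e-08). Its WT mean of gd19.5 was 877 times that of gd10.5, the widest span of the 10. Prl5a1 was lowest at gd14.5, with 6.95, 6.16 and 6.27 CPM in WT after 11.8, 8.42 and 9.65 CPM at gd10.5, and reached 35.9, 58.7 and 20.8 CPM at gd16.5 and 124, 138 and 179 CPM at gd19.5. Both later steps were called in WT, 2.57 ± 0.44 (SE, adjusted p = 3.97e-04) and 1.93 ± 0.41 (SE, adjusted p = 0.0113), the second lost without WT gd16.5 replicate 3 or WT gd19.5 replicate 3. In KO the second step was 4.05 ± 0.46 (SE, adjusted p = 6.05e-06) and the last 0.79 ± 0.39 (SE, adjusted p = 0.248). The KO fall of Prl5a1 from gd10.5 to gd14.5, -1.17 ± 0.45 (SE, adjusted p = 0.0351), was lost when any one of 5 of the 6 libraries was left out, KO gd10.5 replicate 2 being the exception. Without that replicate the fall was -1.61 ± 0.36 (SE, adjusted p = 8.96e-04).

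Prl2a1 (PLP-M) and Prl7b1 (PLP-N, known from invasive trophoblast) varied least over gestation. Prl2a1 held 364 to 556 CPM in WT at gd10.5 and 868 to 1338 CPM at gd19.5, and its WT means spanned 2.71 times. Prl7b1 held 174 to 201 CPM at gd10.5 and 240.2 to 324 CPM at gd19.5, a span of 1.54 times. No step of either gene was called in the 24 libraries in WT or KO, though some fell short only of the fold threshold. Prl7b1 rose from gd14.5 to gd16.5 in KO by 0.92 ± 0.22 (SE, adjusted p = 0.00485), called without KO gd16.5 replicate 3. Prl2a1 rose from gd10.5 to gd14.5 by 0.77 ± 0.29 (SE, adjusted p = 0.0301) in WT and 0.72 ± 0.29 (SE, adjusted p = 0.0412) in KO. Without KO gd10.5 replicate 2, Prl2a1 rose in KO from gd10.5 to gd14.5, 1.30 ± 0.23 (SE, adjusted p = 8.15e-05).

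**Figure D1:**
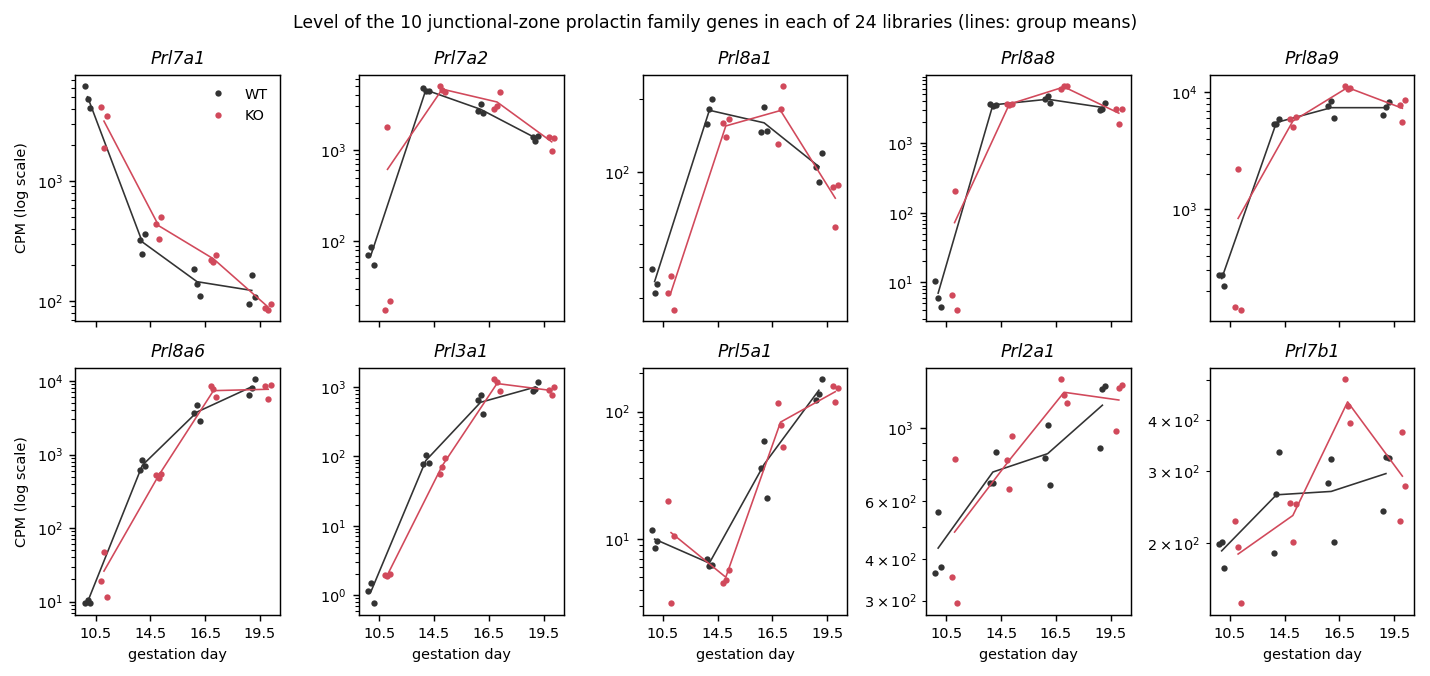
Level of each of the 10 genes in each library (points, CPM on a log axis) by gestation day, with WT and KO side by side and the group mean as a line. Prl7a1 is the one gene with its highest group at gd10.5, at 4024 to 6219 CPM in WT, and the KO point that lies far above the others at gd10.5 for Prl7a2, Prl8a8 and Prl8a9 is replicate 2.

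Ordered per length, the leading gene of WT changed once. At gd10.5 it was Prl7a1 with 3103 ± 684 CPM per kb (SD, n = 3), followed by Prl2a1 with 490 ± 121 and Prl8a9 with 271.0 ± 33.2 CPM per kb, each apart from the next by every library. At gd14.5 Prl8a9 led with 5873 ± 344 CPM per kb, then Prl7a2 with 3562 ± 169.5 and Prl8a8 with 2895 ± 91.0 CPM per kb, again without overlap. At gd16.5 Prl8a9 led with 7864 ± 1300.3 CPM per kb, and the next genes, Prl8a8 with 3492 ± 444 and Prl8a6 with 3361 ± 847 CPM per kb, overlapped. At gd19.5 Prl8a9 with 7864 ± 1015 and Prl8a6 with 7406 ± 1813 CPM per kb overlapped, and Prl8a8 followed with 2667 ± 328 CPM per kb. The lowest gene was Prl3a1 at gd10.5 (0.638 ± 0.211 CPM per kb), Prl5a1 at gd14.5 and gd16.5 (6.09 ± 0.402 and 36.3 ± 18.0 CPM per kb) and Prl8a1 at gd19.5 (53.8 ± 7.51 CPM per kb), whose range overlapped that of Prl7a1.

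As a share of the summed level per length of the 10 genes, Prl7a1 made up 74.1% in WT at gd10.5 and 0.356% at gd19.5, and Prl8a6 0.215% and 34.2%. Together the 10 genes took 0.459 to 0.816% of assigned reads at gd10.5, 1.55 to 1.75% at gd14.5 and 1.69 to 2.63% at gd19.5. At gd16.5 they took 1.55 to 2.19% in WT and 2.73 to 2.82% in KO.

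**Figure D2:**
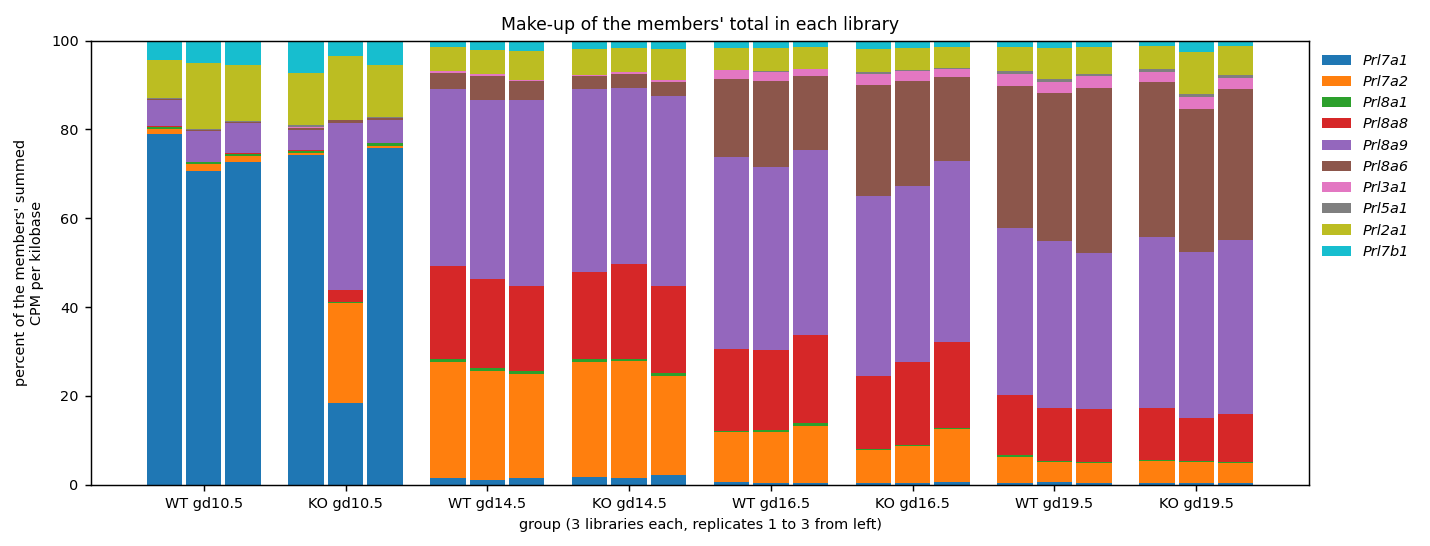
Share of each of the 10 genes in their summed level per length (percent, stacked bars from 0), in each of the 24 libraries. Prl7a1 fills most of each bar at gd10.5 except in KO replicate 2, and Prl8a9 with Prl8a6 most of each bar at gd19.5.

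To ask whether the loss of C1qtnf6 altered these genes, KO was compared with WT within each stage on its 6 libraries. None of the 10 was called at any stage, where 0.00572%, 0.0166%, 0.00586% and 0.023% of all genes tested were called at gd10.5, gd14.5 and gd16.5 and at gd19.5. DESeq2 on the same libraries called none either, giving no adjusted p for Prl7a2, Prl8a8 and Prl8a9 at gd10.5. An unadjusted p under 0.05 was reached by 2, 4, 8 and 2 of the 10 genes on the 4 days, against 0.801%, 6.78%, 11.1% and 13.5% of all genes. The median log2 fold change of the 10 was 0.47, -0.07, 0.64 and -0.16, beside 0.01, 0.00, 0.01 and -0.01 over all genes.

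At gd16.5 all 10 log2 fold changes were above 0, as were 8815 of all 17071 genes tested. The 10 genes were measured in the same 6 libraries. In 7 of the genes every KO library lay above every WT library, as did 8.85% of all genes. For Prl8a8 the KO libraries held 6031, 6515 and 6655 CPM against 4237, 4813 and 3729 CPM in WT, a log2 fold change of 0.60 ± 0.13 (SE, adjusted p = 0.356). For Prl8a9 they held 11414, 10786 and 10860.0 CPM against 7659, 8488 and 6077 CPM, 0.58 ± 0.14 (SE, adjusted p = 0.374). For Prl8a6, given above by library, the value was 0.98 ± 0.21 (SE, adjusted p = 0.356). These 3 are the abundant genes of the 8A subfamily, and for each the lowest WT library was replicate 3. Prl3a1 held 1290.3, 1183 and 887 CPM in KO and a log2 fold change of 0.91 ± 0.24 (SE, adjusted p = 0.388). Prl2a1 held 1404, 1256 and 1187 CPM against 811, 1024 and 672 CPM in WT, 0.63 ± 0.16 (SE, adjusted p = 0.376). Prl7b1 held 502, 432 and 392 CPM against 280.2, 321 and 201 CPM in WT, 0.74 ± 0.18 (SE, adjusted p = 0.363). In none of these 3 did the genotypes overlap, and the same held for Prl7a1, 0.64 ± 0.18 (SE, adjusted p = 0.408). Prl5a1, with 116, 79.0 and 52.8 CPM in KO, overlapped WT and had 1.11 ± 0.40 (SE, adjusted p = 0.431). Prl7a2 had 0.28 ± 0.18 (SE, adjusted p = 0.543) and Prl8a1 0.18 ± 0.20 (SE, adjusted p = 0.695), and both overlapped.

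Several summed marker levels also did not overlap between genotypes at this stage. The summed level of the 6 spongiotrophoblast and glycogen cell markers at gd16.5 was 24033 to 33985 CPM in WT and 39937 to 44478 CPM in KO, and that of 5 trophoblast giant cell markers 16652 to 23790 CPM and 24975 to 29176 CPM, with no marker of either list at the floor. Of those 5, 3 are themselves genes of the prolactin family (Prl3d1, Prl3b1 and Prl2c2), and the others are Hand1 and Ctsq. A sum is carried by its most abundant genes. Taken singly, 4 of the 6 spongiotrophoblast and glycogen cell markers were higher in KO and 2 lower. Their median log2 fold change was 0.145. Of the giant cell markers 4 were higher and 1 lower, with a median of 0.43, and no gene of either list was called. The 6 labyrinth markers summed to 2748 to 3734 CPM in WT and 1390 to 2807 CPM in KO, which overlapped, with Synb at the floor, and the 4 natural killer cell markers to 149.5 to 233 CPM and 51.9 to 71.0 CPM, with Ncr1 at the floor. The 5 yolk sac endoderm markers ranged widely within each genotype, 74.1 to 7996 CPM in WT and 157 to 21841 CPM in KO. The 4 uterine muscle markers summed to 503 to 694 CPM in WT and 384 to 464 CPM in KO, and the summed levels of the decidual, erythroid and endothelial markers overlapped between genotypes. The part of these cell types in the result was not tested. Divided by the summed spongiotrophoblast and glycogen cell markers, the summed level of the 10 genes was 0.662 to 0.699 in WT and 0.728 to 0.784 in KO at gd16.5.

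**Figure D3:**
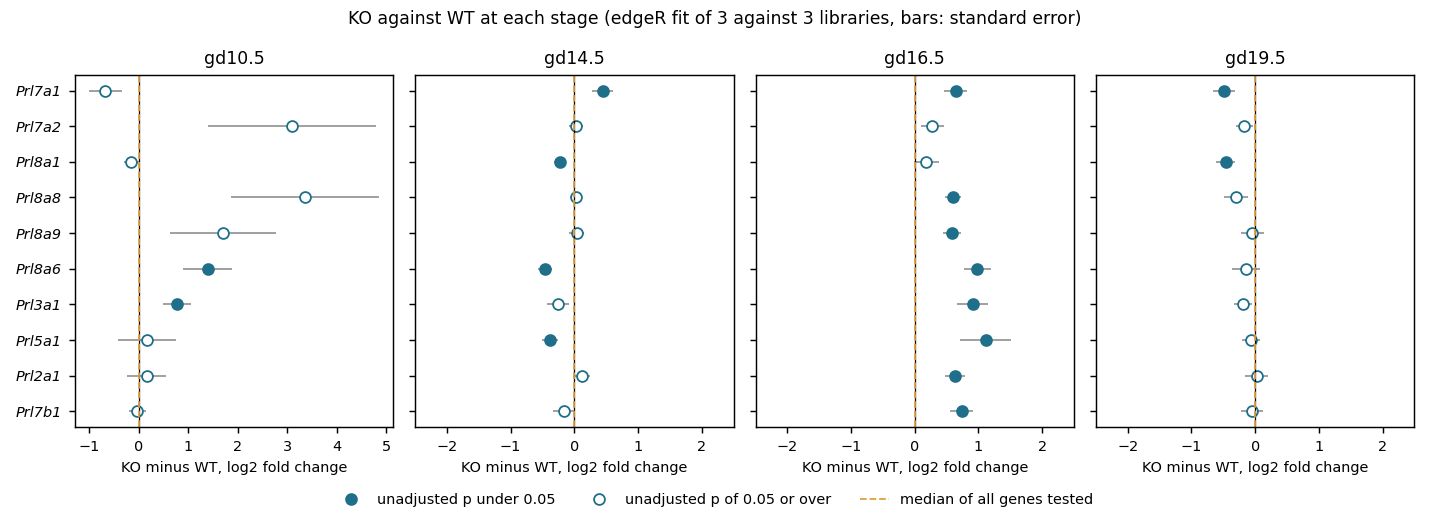
Log2 fold change of KO against WT for each of the 10 genes at each of the 4 stages, with bars of 1 standard error, 3 libraries a genotype. All 10 points are above 0 at gd16.5, from 0.18 to 1.11, where 8815 of all 17071 genes tested were above 0. The bars at gd10.5 are widest for Prl7a2, Prl8a8 and Prl8a9.

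At gd10.5 the comparison depended on 1 library. Prl7a2 had a log2 fold change of 3.10 ± 1.69 (SE, adjusted p = 1.000) with all 6 libraries and -1.82 ± 0.21 (SE, adjusted p = 0.121) without KO replicate 2. Prl8a8 held 6.57, 206 and 4.05 CPM in KO, which gave 3.35 ± 1.49 (SE, adjusted p = 1.000), and -0.41 ± 0.41 (SE, adjusted p = 0.999) without that library. Prl8a9 held 146, 2222 and 138 CPM in KO, which gave 1.71 ± 1.07 (SE, adjusted p = 1.000), and -0.84 ± 0.13 (SE, adjusted p = 0.437) without it. In each of the 3 genes KO replicate 2 was far above every WT library. For Prl7a2 and Prl8a9 the other 2 KO libraries lay under every WT library. The share of all genes with that order was not counted, so nothing is concluded from it. The median of the 10 genes was -0.33 without that library, with 3 values above 0 and 7 below. The genes in which every KO library was above every WT library were Prl3a1, 0.78 ± 0.29 (SE, adjusted p = 1.000), and Prl8a6, 1.40 ± 0.49 (SE, adjusted p = 1.000), where 1.93% of all genes did the same. Without replicate 2 their values were 0.80 ± 0.31 (SE, adjusted p = 0.999) and 0.63 ± 0.21 (SE, adjusted p = 0.999).

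**Figure D4:**
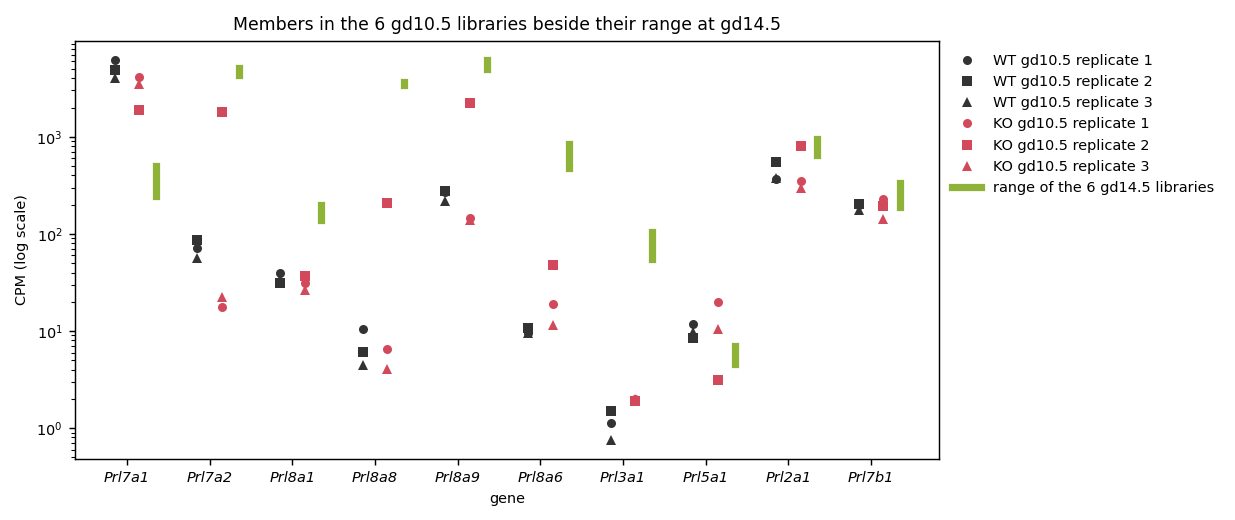
Level of each of the 10 genes at gd10.5 in the 3 WT and 3 KO libraries (CPM, log axis), with KO replicate 2 marked. That library holds 1806 CPM of Prl7a2, 206 CPM of Prl8a8 and 2222 CPM of Prl8a9, and less Prl7a1, 1871 CPM, than any other library of the day.

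At gd14.5 no KO library of Prl8a6 or Prl5a1 reached the WT range, and 6.54% of all genes had every KO library below WT. For Prl8a6 the log2 fold change was -0.46 ± 0.11 (SE, adjusted p = 0.517), and for Prl5a1 -0.38 ± 0.12 (SE, adjusted p = 0.693). Prl7a1, with 0.45 ± 0.16 (SE, adjusted p = 0.698), and Prl8a1, with -0.22 ± 0.09 (SE, adjusted p = 0.728), were the other genes with an unadjusted p under 0.05, and both overlapped between genotypes. At gd19.5 every KO library was below WT for Prl8a1, -0.47 ± 0.15 (SE, adjusted p = 0.247), and, as scaled among the 6 libraries of that stage, for Prl7a1, -0.49 ± 0.17 (SE, adjusted p = 0.278), as it was for 10.4% of all genes. As scaled among all 24 libraries, the scale of the levels given above, KO replicate 3 of Prl7a1 lay just above WT replicate 1. The other 8 genes overlapped at gd19.5, with log2 fold changes from -0.30 to 0.02.

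Whether the course over gestation differed between genotypes was tested as the genotype by stage interaction, over all 4 stages at once. None of the 10 genes and 0% of all genes tested passed (edgeR quasi-likelihood test, adjusted p from 0.553 to 0.879 for the 10), and an unadjusted p under 0.05 was reached by 5 of the 10, Prl3a1, Prl7a1, Prl7b1, Prl8a6 and Prl8a8, against 7.23% of all genes. The DESeq2 likelihood ratio test called Prl8a6 (adjusted p = 0.0410), where 0.237% of all genes were called, and gave no adjusted p for Prl7a2, Prl8a8 and Prl8a9. Without KO gd10.5 replicate 2, edgeR called Prl7a2 (adjusted p = 0.00275) and Prl8a9 (adjusted p = 0.0470), where 0.214% of all genes were called.

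The other 16 listed genes of the family were read in the same fits. From gd10.5 to gd14.5 in WT, 3 of 16 rose (Prl2b1, Prl3b1 and Prl3c1) and 9 fell, among them Prl3d1, the early placental lactogen of giant cells, with -6.47 ± 0.73 (SE, adjusted p = 1.11e-06), while Prl3b1, the later placental lactogen, had 1.63 ± 0.41 (SE, adjusted p = 0.0025). In KO 3 rose and 8 fell. From gd14.5 to gd16.5, 2 of the 16 fell in WT (Prl4a1 and Prl6a1), and in KO Prl7c1 rose and Prl6a1 fell. In the last step none was called in WT and 4 fell in KO. Between genotypes none was called at any stage. At gd16.5, 12 of the 14 tested were above 0 with a median log2 fold change of 0.52, against 10 of 10 and 0.64 for the 10 genes. Of all 17071 genes tested at that stage, 8815 were above 0.

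Of 7 genes of the prolactin receptor pathway (the receptor and its JAK2, STAT5 and SOCS partners), none was called between genotypes. Over gestation Socs3, a feedback inhibitor of cytokine receptors, fell from gd10.5 to gd14.5 in both genotypes, -1.42 ± 0.19 in WT and -1.16 ± 0.19 in KO (SE), and Socs2 rose from gd14.5 to gd16.5 in KO, 1.18 ± 0.19 (SE). No other step of these 7 genes was called.

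Across the 24 libraries, log2 CPM of 36 of the 45 pairs of the 10 genes correlated above 0 and 9 below, with a median Pearson r of 0.72. Prl3a1 and Prl8a6, with 156.0 kb and 3 other family genes between them, were the closest pair (r = 0.99). The genes most like the mean of the 10, over 24 libraries and 19299 genes, were Zmat4, 1600012P17Rik, Gtf2b, Wdr61, Ptbp3, Gm14224, Ceacam11, Igsf9, Vhl and Ceacam13, with r from 0.975 (Ceacam13) to 0.982 (Zmat4). By Spearman correlation, only 5 of these were again among the 10 highest. Nearest to single members were Tpbpb, a paralogue of Tpbpa, for Prl8a9 (r = 0.998), Ceacam12 for Prl8a8 (r = 0.998), Lepr, the leptin receptor, for both Prl3a1 and Prl8a6 (r = 0.99), Otoa for Prl7a1 (r = 0.99) and the family member Prl7c1 for Prl7b1 (r = 0.90). These points share stage, library and tissue, and a like course is all that they describe.

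Reads that fit more than 1 place in the genome are left out by default in the counting program named by the study, so members with near-identical copies could lose reads. The best alignment of a member's transcript to another gene of the table was 95.4% over 347 bases for Prl8a1 and Gm33027, 84.4% over 576 bases for Prl8a6 and Prl8a8, 80.8% over 935 bases for Prl8a9 and Prl8a8, and 71.2% over 937 bases for Prl7a2 and Prl7a1.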

How the data were processed

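Gene counts of 24 libraries were used, as the authors deposited them: whole, not normalized counts per gene. By the study's methods, poly(A) RNA was made into stranded libraries, trimmed with Trim Galore (0.6.4), aligned to GRCm38 with STAR (2.7.3a per the labels) and counted with featureCounts (Subread 2.0.0) at default settings, which ignore strand and leave out reads that align to several places. Totals were 20975717 to 37383108 counts, and a floor of 3 counts covers counting error only. All sample columns were mapped to a library by their labels.

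Counts were filtered (filterByExpr, minimum count 10, minimum total 15), scaled by TMM and fitted with edgeR 4.0.16 (quasi-likelihood test, R 4.3.3): KO against WT on the 6 libraries of a stage, and steps and interaction on all 24. A call needed a Benjamini-Hochberg adjusted p under 0.05 and, except for the interaction, a log2 fold change over 1 in size. Levels are TMM-scaled CPM, divided by exon length where genes are compared. An exact permutation test of 3 against 3 libraries cannot give a p under 0.1 and was not used. The named genes were the 10 members, the called genes of the listed family and pathway, and the 10 genes with the highest r to the members' mean scaled log2 CPM. Genes nearest to single members, and the gene pairs whose ratios are given, were chosen after their values were seen. Marker and pathway lists and the members were chosen with earlier results of these data known, and the motif TATATAGG after its promoters had been read. Transcripts were compared with blastn 2.17.0 and promoters by local alignment (Biopython 1.88). Alternatives were RLE size factors, no filter, no fold threshold, the replicate block, other sets of libraries in the fit, DESeq2 1.42.0 and each library left out. The fits of all libraries without KO gd10.5 replicate 2 were chosen after seeing the data.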

Additional observations from a re-analysis of the deposited data

Results flagged for a closer look

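In 3 cases, with levels scaled among the 6 libraries of each stage, every KO library lay above every WT library at one stage and below at another. For Prl7a1, KO was above at gd16.5 and below at gd19.5, and the 2 log2 fold changes differed by 1.13. In the fit of all 24 libraries the difference of the steps was -1.09 ± 0.37 (SE, adjusted p = 0.237, edgeR quasi-likelihood test), so it did not pass. As scaled among all 24 libraries, KO replicate 3 lay just above WT replicate 1 at gd19.5, so there the genotypes overlapped. For Prl8a6, KO was above at gd10.5 and below at gd14.5, a difference of 1.85 in the fits by stage and -1.85 ± 0.49 (SE, adjusted p = 1.00) in the fit of all libraries, and at gd10.5 the highest KO library was replicate 2, which stood apart. Without that library the difference of the steps was -1.07 ± 0.33 (SE, adjusted p = 0.649). Prl8a6 was again above at gd16.5, 1.44 higher than at gd14.5, with a tested difference of 1.42 ± 0.48 (SE, adjusted p = 0.799), which did not pass either.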

How the results depend on the processing

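Of the values recomputed under other settings, 1330 were taken as the same. For a log2 fold change this meant the same direction and side of the threshold, and for a count a move of at most 1.5 times. Of the rest, 39 changed sign, 17 passed only under the alternative and 14 only in the reported fit. A further 16 counts moved by more than 1.5 times, or to or from 0. No setting called any of the 10 genes between genotypes within a stage. DESeq2 on all 24 libraries gave no adjusted p for Prl7a2, Prl8a8 and Prl8a9 at any stage, so these 3 could not be called there. The same held at gd10.5 in DESeq2 on the 6 libraries. The number of members called moved by more than 1.5 times, or to or from 0, in the cases below. Smaller moves are left out of this list. Shares in parentheses are those of all genes called in the same fit. Without a fold threshold 5 were called from gd14.5 to gd16.5 in KO (23.6%), instead of 3. From gd16.5 to gd19.5 in WT, instead of 1, 2 were called without the expression filter (0.806%), 3 in a fit of the 6 libraries of both groups (2.13%) and 2 by DESeq2 on all 24 libraries (1.84%). From gd10.5 to gd14.5, DESeq2 called 4 in WT (18.7%) and 5 in KO (3930 of 23769 genes), where Prl7a2, Prl8a8 and Prl8a9 had no adjusted p, and the fit of 6 libraries called 5 in KO (16.6%; Prl5a1, Prl7a2 and Prl8a9 lost). From gd16.5 to gd19.5 in KO that fit called 4 (1.46%), instead of 2. The DESeq2 likelihood ratio test called 1 in the interaction (Prl8a6; 0.237%). Leaving out each library in turn gave 0 to 2 calls in the interaction, 0 to 3 from gd16.5 to gd19.5 in WT and 1 to 4 in KO. The highest counts were those without KO gd10.5 replicate 2, and the cause was not tested.

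Replicate numbers are shared between genotypes but no source says that they pair samples. The sample titles number the KO libraries 3 to 5, while their descriptions and the table's columns number them 1 to 3, and the latter were used. Same-numbered WT and KO libraries had deviations correlated from -0.46 to 0.41, over 0.1 in 5 of 12 pairs, and 6 of 12 WT libraries correlated best with the KO library of their own number. With the replicate block, 7 members instead of 8 were called from gd10.5 to gd14.5 in KO (Prl5a1 lost) and no other call changed. At gd10.5 the block turned Prl5a1 from 0.17 to -0.145 and Prl7a2 from 3.10 to -0.18. From gd16.5 to gd19.5 in WT, Prl8a9 went from -0.0001 to 0.0065 with the block, 0.0026 with RLE size factors and 0.0168 in the fit of 6 libraries.

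Signs turned when 1 library was left out, with these ranges of log2 fold changes, none of them called. KO against WT at gd10.5: Prl2a1 -0.41 to 0.43, Prl5a1 -0.54 to 0.62, Prl7a2 -1.82 to 3.69, Prl7b1 -0.18 to 0.15, Prl8a8 -0.41 to 3.93 and Prl8a9 -0.84 to 2.23. At gd14.5: Prl2a1 -0.0251 to 0.24, Prl7a2 -0.0419 to 0.071, Prl7b1 -0.35 to 0.0351 and Prl8a9 -0.0194 to 0.12. At gd16.5: Prl8a1 -0.0234 to 0.37. At gd19.5: Prl2a1 -0.15 to 0.16, Prl5a1 -0.18 to 0.11, Prl7b1 -0.26 to 0.11, Prl8a6 -0.29 to 0.0765 and Prl8a9 -0.17 to 0.12. From gd14.5 to gd16.5 in WT: Prl7b1 -0.16 to 0.24. From gd16.5 to gd19.5: Prl7b1 -0.0235 to 0.30 and Prl8a9 -0.12 to 0.11 in WT, and Prl2a1 -0.16 to 0.0618 and Prl8a6 -0.064 to 0.24 in KO.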

Other observations

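The balance of 2 paralogues of the 8A subfamily differed between stages. Per length, Prl8a6 stood at 0.979, 1.91 and 2.29 times the level of Prl8a8 in WT libraries of gd10.5 and at 3.10, 0.251 and 3.10 times in KO, where replicate 2 had the lowest ratio. From gd14.5 on the ratio was higher at each later stage, at 0.182 to 0.265 in WT libraries of gd14.5, at 0.835 to 1.08 at gd16.5 and at 2.38 to 3.08 at gd19.5, with no overlap between these 3 stages. In KO the ratios were 0.148 to 0.164, 0.979 to 1.53 and 2.97 to 3.32 on the same days. At gd14.5 every KO ratio was below every WT ratio, and at gd16.5 and gd19.5 the genotypes overlapped. The pair was chosen after its values were seen and its ratios were not tested.

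Once the mean of each group was taken away, the genes whose deviations were most like the members' mean over the 24 libraries were Alg5, Tmco1, Nme7, Gtf2b, Sec22b, Gm648, Gm3654, Taf7, Mydgf and 2310030G06Rik, with r from 0.889 to 0.930. This list was drawn up only with KO gd10.5 replicate 2 included, and how far it rests on that library was not tested. Only Gtf2b of these 10 genes was also among the 10 most like the members over stages by Pearson r. Between pairs of the 10 genes, deviations correlated above 0 in 33 of 45 pairs with a median r of 0.26, and in 42 of 45 with a median of 0.43 without KO gd10.5 replicate 2.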
